A study of Mus musculus with 33 samples.

Results

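Solute carriers (Slc) are the membrane proteins that move amino acids, sugars, metals, ions, nucleosides and lipids across the plasma membrane and between compartments of the cell. The gene group described here holds 204 genes, chosen from 10412 genes measured in the mouse uterus. The rule took each gene whose symbol is Slc followed by a number, letters and a number, kept those with detection p under 0.01 on at least 4 arrays, and used 1 probe per gene, the one with the highest mean in the authors' normalized table. The pattern fits 208 genes, of which 1 was not detected on 4 arrays and 3 were left out by the rule. The 204 genes fall in 46 numbered subfamilies. Judged by symbol, 4 of these genes are not carriers. Slc9a3r1 and Slc9a3r2 are scaffold proteins that bind carriers, and Slc7a6os and 1 more gene are named after a carrier without being one. The other members were taken as carriers by their symbol alone.

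RNA came from uterine tissue of C57BL/6 mice, an inbred strain, at 8 weeks of age, and was hybridised to 33 Illumina bead arrays. Non-pregnant uterus was measured on 6 arrays. For the pregnant groups, labelled as uterine microenvironment and dated from fertilization, there were 4 arrays of day 4, 6 of day 6, 4 of day 8, 4 of day 10, 4 of day 11 and 5 of day 12. The labels do not state which parts of the implantation site were included, nor that each array holds a separate animal, so p-values measure the spread between these samples, which may be technical. Each pregnant day was set against non-pregnant uterus to ask how carrier expression differs after conception, and successive days were set against each other to place the steps. Levels are log2 intensities. The lowest signal of a detected probe lay between 4.98 and 6.08 on the 33 arrays, so a level near 4.4 is that of background. "Rose" and "fell" mean an adjusted p under 0.05 in limma, and "changed" adds a difference of at least 2-fold.

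In the mouse, the embryo attaches to the uterine lining, and stromal cells around it enlarge into the decidua, a tissue that feeds and encloses the embryo until the placenta takes over. Carriers set what reaches it. Secondary carriers use sodium, proton or chloride gradients to pull in substrates, facilitative carriers such as the glucose transporters let them flow down a gradient, exchangers swap one solute for another, and the carriers of mitochondria, vesicles and the Golgi distribute solutes within the cell. RNA of whole tissue does not tell fewer cells of a type from less RNA per cell.

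The share of carrier genes that changed was above that of all genes on each pregnant day, by the least at days 4 and 12. Against non-pregnant uterus, 8 of 204 Slc genes changed at day 4 (3.92%, against 2.7% of all genes tested), 36 at day 6 (17.6% against 13.1%) and 64 at day 8 (31.4% against 22.2%). The counts were 66 at day 10 (32.4% against 24.6%), 68 at day 11 (33.3% against 27.8%) and 64 at day 12 (31.4% against 28.4%). The median log2 difference of the Slc genes lay between -0.032 and 0.10 on the 6 days, and that of all genes between -0.017 and 0.040, against which the class medians given later are to be set. These 6 comparisons share the same non-pregnant arrays, and the shares were not tested against each other. The share of all genes was counted with the main processing only. Whether the carrier share stays above it under other processing was not tested.

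Upward changes outnumbered downward ones on each day, except that at day 6 the order turned with cyclic loess normalization (15 upward and 17 downward), with equal numbers in the authors' values (8 and 8), and at day 4 it turned without background correction and in the authors' values (1 upward and 2 downward). Upward changes numbered 5 at day 4 (2.45%, against 1.47% of all genes), 20 at day 6 (9.8% against 6.69%), 36 at day 8 (17.6% against 10.9%), 39 at day 10 (19.1% against 12.6%), 38 at day 11 (18.6% against 14%) and 34 at day 12 (16.7% against 14.2%). Downward changes numbered 3 at day 4 (1.47% against 1.23%), 16 at day 6 (7.84% against 6.42%), 28 at day 8 (13.7% against 11.3%), 27 at day 10 (13.2% against 12%), 30 at day 11 (14.7% against 13.8%) and 30 at day 12 (14.7% against 14.2%). Without the 2-fold limit, 10 Slc genes rose and 12 fell at day 4 (all genes 4.47% and 4.49%), 42 rose and 40 fell at day 6 (20% and 18.9%), and 58 rose and 53 fell at day 8 (24.8% and 26.2%). At day 10, 70 rose and 51 fell (26.5% and 27.3%), at day 11 71 and 49 (30.7% and 27.5%), and at day 12 66 and 56 (31.8% and 29%). At day 4, 62.5% of the changed genes were upward, or 33.3% of the 3 changed without background correction and in the authors' values. Median scaling shifted the median of all genes at day 4 by 0.14.

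**Figure D1:**
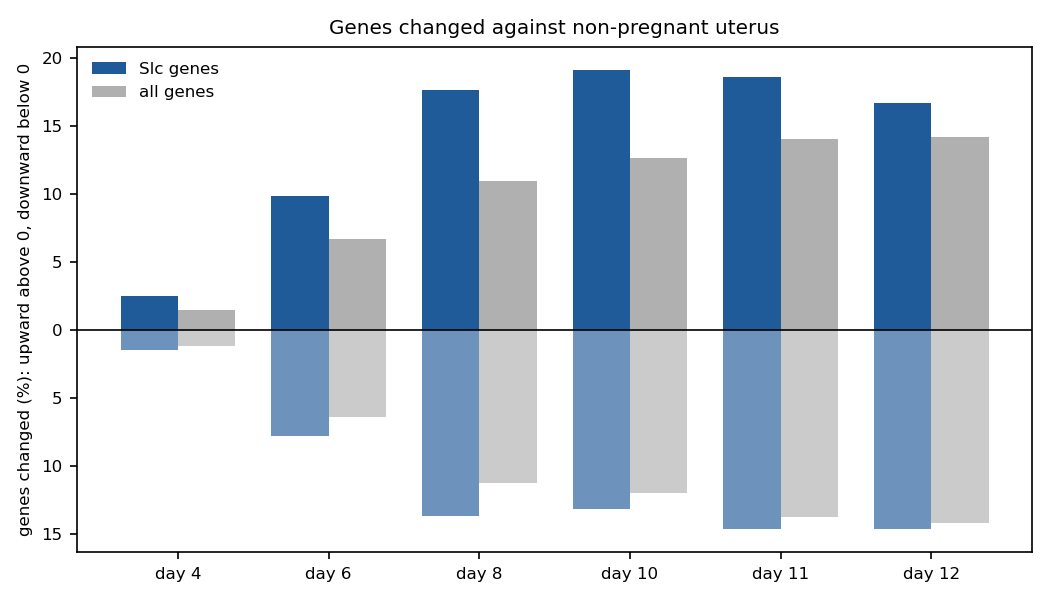
Percentage of genes changed (adjusted p under 0.05 and at least 2-fold) on each day against non-pregnant uterus, upward above 0 and downward below 0, for the 204 Slc genes (blue, left bar) and all 10412 genes (grey, right bar). The Slc bar is the taller upward bar on all 6 days, with 19.1% of Slc genes and 12.6% of all genes at day 10.

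The count at day 4 was the least firm. It was 5 without non-pregnant replicate 1, 5 without non-pregnant replicate 5, 2 without day 4 replicate 2 and 4 without day 4 replicate 3, and with only the day 4 and non-pregnant arrays in the fit it was 0, with 30 Slc genes at an unadjusted p under 0.05. From day 6 on, leaving out any 1 array kept each count between 31 and 69. Of the arrays, non-pregnant replicate 4 and day 6 replicate 4 detected the fewest probes (13097 and 13149, against 15040 to 18692 on the other arrays), and they detected 121 and 118 Slc genes, against 144 to 184 on the others. Without these 2 arrays the counts were 10 at day 4, 30 at day 6, 67 at day 8, 67 at day 10, 64 at day 11 and 66 at day 12. The share of all genes was not counted in these fits.

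Over all 7 groups, 168 of 204 Slc genes (82.4%) passed limma's F test (adjusted p under 0.05), against 80.1% of all genes. A range of group means of at least 2-fold was reached as well by 120 of them (58.8%, against 50.5%). The median range of the 7 group means was 1.26 on the log2 scale, against 1.02 for all genes. Of those 120 genes, 22 had their highest mean in non-pregnant uterus, 20 at day 4, 3 at day 6, 21 at day 8, 19 at day 10, 13 at day 11 and 22 at day 12. Few carriers peaked at day 6 (2.5%, against 7.36% of the 5258 genes of the whole table past the same limits), and more at day 10 (15.8% against 9.97%).

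**Figure D2:**
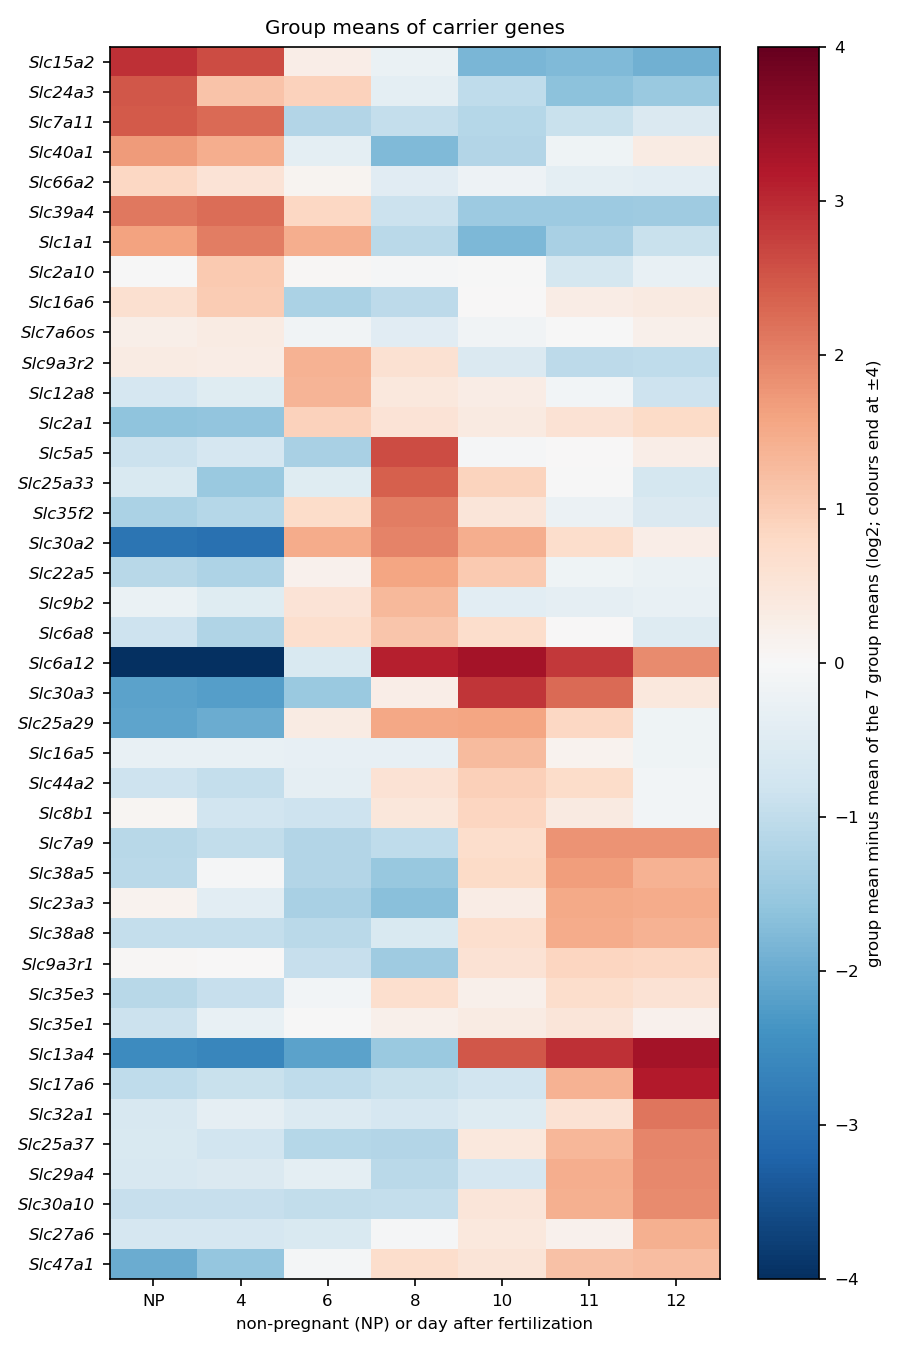
Group means of the carrier genes named by rule, each shown as its log2 intensity minus the mean of its 7 group means, with groups in columns (NP, non-pregnant) and genes ordered by the group of their highest mean. Slc15a2, Slc24a3 and Slc7a11 are among those highest in non-pregnant uterus, Slc5a5 and Slc25a33 among those highest at day 8, and Slc13a4 and Slc17a6 among those highest at day 12.

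The tissue itself changed between the groups, as marker lists show by the sum of their normalized intensities. Of 10 decidual stroma markers, 9 were measured and summed to 24600 to 27000 on the day 8 arrays, against 989 to 3990 in non-pregnant uterus. Of 10 epithelial markers, 9 were measured and summed to 1370 to 1780 at day 8 and 11700 to 14200 at day 12, against 4380 to 20800 in non-pregnant uterus. Of 10 trophoblast markers, 6 were measured, all undetected in non-pregnant uterus, and they summed to 35200 to 40800 at day 10, against 126 to 135. The 9 yolk sac markers summed to 22900 to 28500 at day 12, against 212 to 305 in non-pregnant uterus, where 6 were undetected, and the 7 erythroid markers to 68800 to 85700, against 170 to 201 with 5 undetected. The 7 smooth muscle markers summed to 57800 to 72100 at day 8 and 26800 to 39600 at day 12, against 54500 to 100000 in non-pregnant uterus. Smooth muscle signal was thus measured in each group, with 1 of the 7 markers, Cnn1, undetected at day 12. The part of these tissues in the carrier results was not tested.

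Some carriers were detected in pregnant uterus alone. Of the 204 genes, 18 (8.82%) were undetected on every non-pregnant array, against 6.19% of all genes. Such a gene had to be detected on pregnant arrays to enter the group, so this count supports nothing by itself. For the same reason, p-values of these genes against groups where they were undetected only describe the difference. Of these 18, Slc30a2 and Slc6a12 were first detected on all arrays of a group at day 6, and Slc30a3, Slc39a14, Slc43a3 and Slc9b2 at day 8. Slc16a5, Slc30a10, Slc38a8, Slc39a5 and Slc7a9 followed at day 10, and Slc17a6, Slc22a6 and Slc32a1 at day 11. The other 4 (Slc10a4l, Slc25a18, Slc36a3 and Slc45a2) were never detected on all arrays of a group. In the other direction, 108 genes (52.9%, against 67.8% of all genes) were detected on every non-pregnant array, and 5 of them (4.63%, against 2.73%) on 0 arrays of at least 1 pregnant group: Slc14a1, Slc15a2, Slc25a42, Slc27a1 and Slc2a4. Slc22a6, Slc43a3, Slc10a4l, Slc25a18, Slc36a3, Slc45a2, Slc25a42 and Slc27a1 were named after their values were seen.

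On each of days 6 to 12 the carrier gene that differed most from non-pregnant uterus was Slc6a12, which encodes the betaine and GABA transporter of kidney and brain, a sodium- and chloride-coupled carrier that cells use to take up betaine as an organic osmolyte. It was not detected on any of the 6 non-pregnant arrays, where it lay at 4.39 to 4.99 with a median of 4.66, and was detected on 2 of 4 day 4 arrays, at 4.84, 5.19, 5.32 and 5.16. At day 6 it lay at 8.97 to 10.67 with a median of 9.30, at day 8 at 13.18, 13.41, 13.30 and 13.28, and at day 10 at 13.42, 13.56, 13.44 and 13.62. It then read 12.85, 12.90, 13.20 and 13.01 at day 11 and 12.08, 12.06, 12.03, 12.19 and 11.99 at day 12. Each array from day 6 on stood above every non-pregnant and day 4 array, and the day 12 arrays were all below the day 8 to 11 arrays.

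A fold against a group with no detected array is a lower bound, set by the lowest detected signal of its arrays. Against non-pregnant uterus, Slc6a12 was at least 19.5-fold higher (adjusted p = 2.10e-19) at day 6, at least 259.7-fold higher (adjusted p = 1.33e-24) at day 8 and at least 302-fold higher (adjusted p = 1.14e-25) at day 10. It was at least 211-fold higher (adjusted p = 4.03e-25) at day 11 and at least 111-fold higher (adjusted p = 9.41e-25) at day 12. At day 4 it did not pass (adjusted p = 0.194). At day 8 it rose by 3.73 (SE 0.21, adjusted p = 6.69e-15) relative to day 6. The decidual marker sum was 7680 to 11300 at day 6, 24600 to 27000 at day 8 and 7940 to 10600 at day 12. The part of decidual tissue in the level of Slc6a12 was not tested.

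RefSeq lists 5 start sites for Slc6a12 (GRCm38.p6), and which of them the tissue uses was not measured. The window of the first, 250 bases before to 50 after the start, is shown because it alone of the 5 holds the core of the tonicity response element, searched on both strands as TGGAAANNN and printed in capitals. That core is common, present in 21.3% of the 32851 promoter windows in the table.
Slc6a12 (chr6:121342324-121342623, plus strand): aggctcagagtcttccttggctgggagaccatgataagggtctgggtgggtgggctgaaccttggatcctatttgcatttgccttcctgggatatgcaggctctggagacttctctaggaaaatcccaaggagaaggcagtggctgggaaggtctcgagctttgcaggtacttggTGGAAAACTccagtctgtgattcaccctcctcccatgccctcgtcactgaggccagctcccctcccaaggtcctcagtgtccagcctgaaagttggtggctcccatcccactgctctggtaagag

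**Figure D3:**
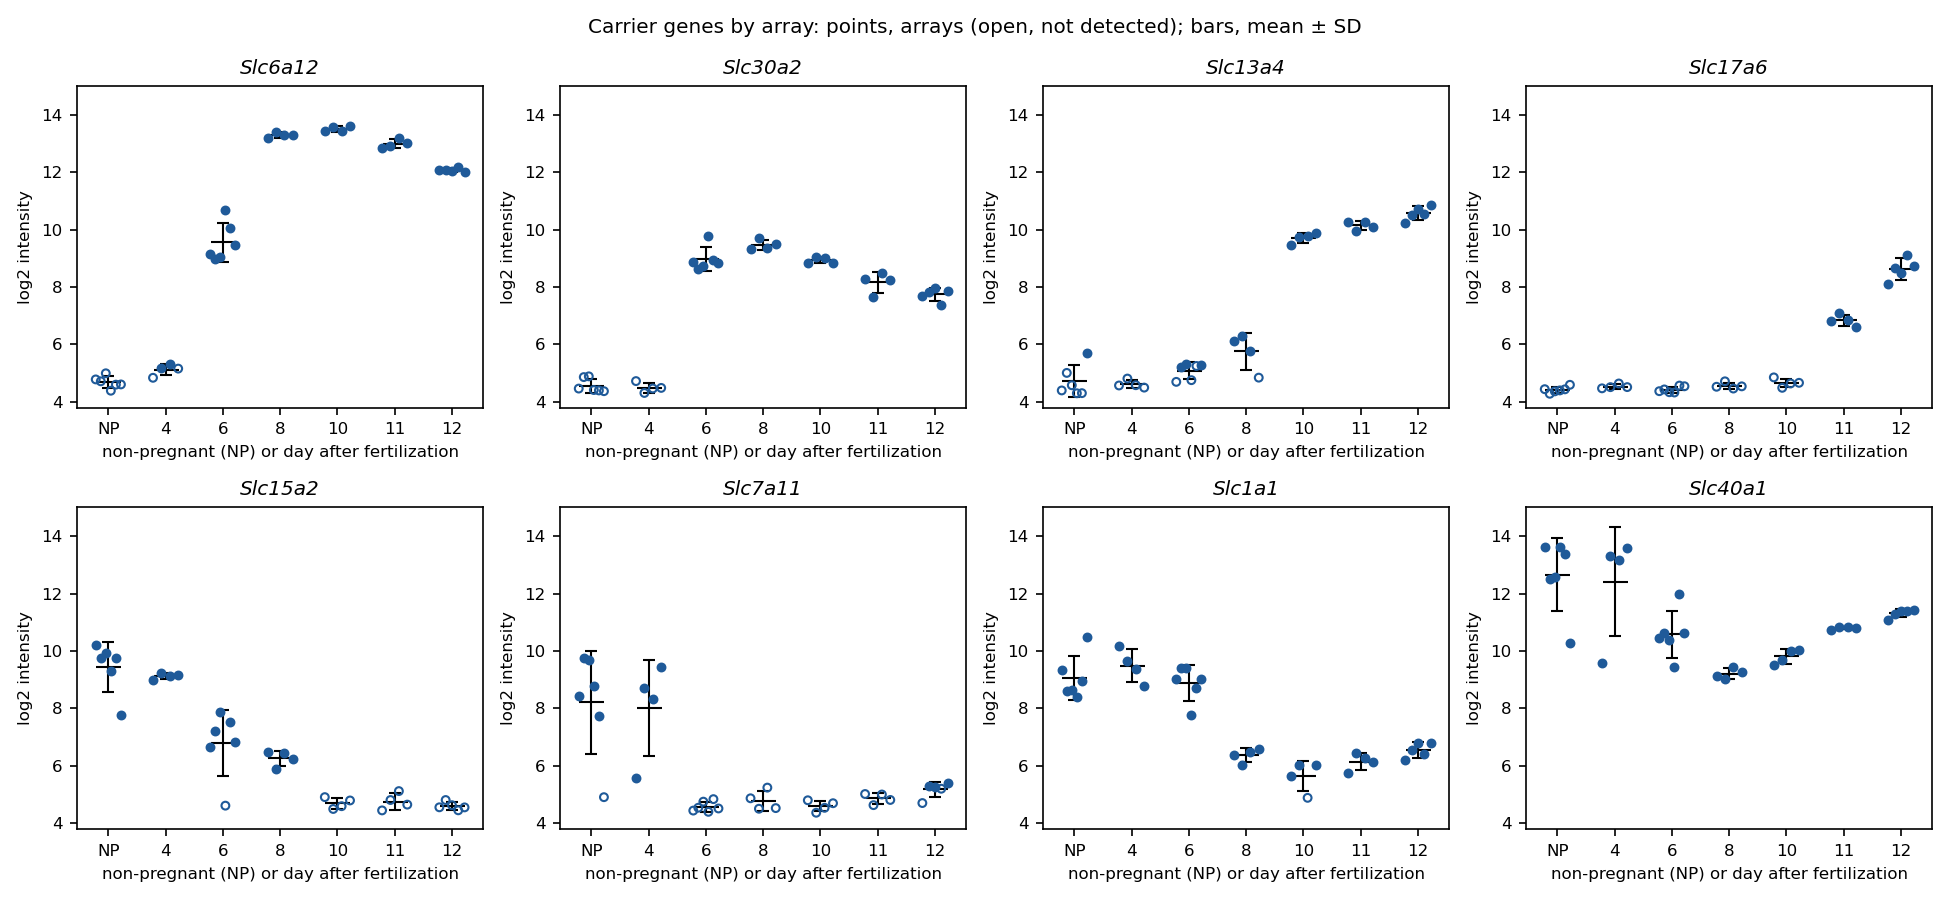
Log2 intensity of 8 carrier genes on each of the 33 arrays, by group (NP, non-pregnant; then day after fertilization), with open points where the probe was not detected and bars for the mean and SD. Slc6a12, Slc30a2, Slc13a4 and Slc17a6 (top row) lie near background in non-pregnant uterus and at high levels on later days, and Slc15a2, Slc7a11, Slc1a1 and Slc40a1 (bottom row) are lower on the later days.

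Among the 14 carriers of neurotransmitters and osmolytes, 7 rose, 3 fell and 4 did not pass at day 10, with a median of 0.70, against 26.5% of all genes rising and 27.3% falling. Slc6a8, the creatine transporter, rose by 1.94 (SE 0.14, adjusted p = 3.76e-13) at day 8, averaging 11.89 ± 0.08 (SD, n = 4) at day 8 and 9.94 ± 0.34 in non-pregnant uterus (n = 6). Slc6a2, the noradrenaline transporter, rose by 3.59 (SE 0.66, adjusted p = 3.69e-05) at day 10. Its non-pregnant arrays spread widely, at 8.17 ± 2.21 (SD, n = 6), with 5 of 6 detected. Slc6a6, the taurine transporter, rose by 1.48 (SE 0.18, adjusted p = 4.28e-08) at day 8. Both Slc6a2 and Slc6a6 were named after their values were seen. Slc6a13, a GABA carrier related to Slc6a12 and likewise named after its values were seen, stood at 7.44, 8.08, 8.17, 8.03 and 8.38 at day 12, against 4.49 to 5.77 with a median of 5.27 in non-pregnant uterus, a rise of 2.79 (SE 0.29, adjusted p = 1.12e-09). It also rose by 1.22 (SE 0.31, adjusted p = 0.0121) at day 4, a call lost without day 4 replicate 2 or 3 (adjusted p up to 0.235 over the alternatives), and did not pass at days 6, 8 and 10, when Slc6a12 was high, with a difference of -0.10 (SE 0.31, adjusted p = 0.812) at day 8.

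A pair of carriers that load transmitters into synaptic vesicles came last. Slc17a6, the vesicular glutamate transporter of many excitatory neurons, was undetected from non-pregnant uterus to day 10, then read 6.81, 7.10, 6.84 and 6.61 at day 11 and 8.11, 8.66, 8.48, 9.13 and 8.73 at day 12. It was at least 10.2-fold higher (adjusted p = 1.55e-23) at day 12 than in non-pregnant uterus, with no overlap between the arrays. Slc32a1, the vesicular GABA and glycine transporter, which the class lists leave out, read 5.85, 5.54, 5.48 and 5.58 at day 11 and 6.22, 7.23, 7.49, 7.60 and 7.35 at day 12 and was undetected on all earlier arrays. At day 12 it was at least 3.75-fold higher (adjusted p = 2.68e-15) than in non-pregnant uterus.

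Of 3 measured partner genes of betaine and osmolyte handling, Chdh, which makes betaine from choline, fell by 1.26 (SE 0.19, adjusted p = 4.47e-06) at day 6 and rose by 0.76 (SE 0.22, adjusted p = 0.00370) at day 10. Bhmt2, a methyltransferase undetected in non-pregnant uterus, was at least 1.83-fold higher at day 12. Bhmt2 passed the detection limit through arrays of days 10 to 12 alone, so this is a description with no test. Nfat5, the transcription factor of the response to tonicity, fell by 1.16 (SE 0.20, adjusted p = 9.60e-06) at day 11. Nfat5 fell on each of days 6 to 12, the days on which Slc6a12 was high. Nfat5 activity was not measured, and its part in the level of Slc6a12 was not tested. Among 7 aquaporins, the water channel Aqp8 changed upward on all 6 days, by 1.58 (SE 0.49, adjusted p = 0.0385) at day 4 and 4.12 (SE 0.49, adjusted p = 2.04e-08) at day 10. Its day 4 arrays, at 5.21 to 7.80, overlapped the non-pregnant ones, at 4.43 to 7.12. The day 4 call of Aqp8 was not checked under other processing.

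Among amino acid and peptide carriers, Slc15a2 and Slc7a11 had large falls, and others rose late. Of 29, 5 rose, 6 fell and 18 did not pass at day 6 (median -0.11), against 20% of all genes rising and 18.9% falling, and 9 rose, 9 fell and 11 did not pass at day 11 (median 0.33), when 30.7% of all genes rose and 27.5% fell. Slc15a2, the high-affinity proton-coupled peptide transporter, lay at 7.78 to 10.20 with a median of 9.75 in non-pregnant uterus and at 8.99, 9.24, 9.12 and 9.17 at day 4. It lay at 4.62 to 7.87 with a median of 7.02 at day 6, read 6.48, 5.90, 6.43 and 6.23 at day 8, and was undetected on all 13 arrays of days 10 to 12. The lowest day 6 value is that of replicate 4, one of the 2 dim arrays. Against non-pregnant uterus Slc15a2 fell by 3.19 at day 8 on the log2 scale (SE 0.40, adjusted p = 7.53e-08), and was at least 17.7-fold lower (adjusted p = 1.40e-11) at day 10 and at least 19.4-fold lower (adjusted p = 1.28e-12) at day 12.

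Slc7a11 encodes the light chain of the cystine-glutamate exchanger, which brings in cystine for glutathione. In non-pregnant uterus it lay at 4.91 to 9.76 with a median of 8.61, with replicate 6 the lowest and undetected, and at day 4 it read 5.59, 8.71, 8.33 and 9.45. It was undetected on every array of days 6, 8, 10 and 11, and on day 12 read 4.71, 5.31, 5.27, 5.21 and 5.40, detected on 3 of 5 arrays. At day 6 it was at least 7.29-fold lower (adjusted p = 2.42e-06) than in non-pregnant uterus, with no overlap between the arrays, and at day 10 at least 7.54-fold lower (adjusted p = 7.09e-06). The non-pregnant and day 4 arrays spread widely. Without non-pregnant replicate 6 it was at least 11.5-fold lower at day 6, and at least 11.6-fold, 11.9-fold and 12.3-fold lower at days 8, 10 and 11, against 7.32-fold, 7.54-fold and 7.77-fold with it. At day 12 the log2 difference was -3.70 without that array, against -3.04 with it.

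The RefSeq promoter window of Slc7a11 (GRCm38.p6) is shown because it holds 2 copies, in opposite orientation, of the C/EBP-ATF response motif TGATGNAA through which amino acid shortage is known to act on this gene. The copies are in capitals, and 3.97% of all windows hold at least 1. The match describes the letters and says nothing of binding in these samples.
Slc7a11 (chr3:50443564-50443863, minus strand): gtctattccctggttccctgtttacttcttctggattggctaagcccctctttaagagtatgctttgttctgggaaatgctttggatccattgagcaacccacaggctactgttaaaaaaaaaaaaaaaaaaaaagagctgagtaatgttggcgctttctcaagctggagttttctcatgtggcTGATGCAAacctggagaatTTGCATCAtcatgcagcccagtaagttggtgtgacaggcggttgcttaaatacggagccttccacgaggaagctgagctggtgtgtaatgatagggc

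Of other known targets of that response, Asns, asparagine synthetase, rose by 1.24 (SE 0.20, adjusted p = 1.13e-05) at day 6, when Slc7a11 was undetected, and by 2.04 (SE 0.23, adjusted p = 5.95e-09) at day 10, and Trib3, a pseudokinase, rose at day 10 by 1.86 (SE 0.18, adjusted p = 2.51e-10). Of the 5 genes listed for the response, 1 rose and 1 fell at day 6, against 20% of all genes rising and 18.9% falling. The gene that fell at day 6 was Ddit3, with a mean of 7.57, against 8.23 in non-pregnant uterus. At day 10, 4 of the 5 rose and 0 fell, against 26.5% of all genes rising and 27.3% falling. Chac1, which breaks down glutathione, rose at day 8 by 1.54 (SE 0.31, adjusted p = 1.23e-04) and at day 10 by 2.61 (SE 0.31, adjusted p = 2.46e-08). Of 6 measured partner genes of glutathione and cystine, 4 rose and 0 fell at day 10, and 2 rose and 1 fell at day 12, against 31.8% of all genes rising and 29% falling.

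Slc1a1, the neuronal and epithelial glutamate and cysteine carrier, kept its level later than Slc7a11. It lay at 8.39 to 10.49 with a median of 8.81 in non-pregnant uterus, at 10.17, 9.64, 9.36 and 8.79 at day 4 and at 7.76 to 9.42 with a median of 9.04 at day 6. It then read 6.39, 6.03, 6.50 and 6.58 at day 8, 5.66, 6.04, 4.89 and 6.02 at day 10 and 6.19, 6.55, 6.81, 6.40 and 6.81 at day 12. All arrays of days 8 to 12 were below all non-pregnant arrays. The log2 difference was -0.17 (SE 0.29, adjusted p = 0.676) at day 6, -2.70 (SE 0.33, adjusted p = 4.86e-08) at day 8 and -3.42 (SE 0.33, adjusted p = 2.79e-10) at day 10, and the step lay between days 6 and 8, with -2.52 (SE 0.33, adjusted p = 7.66e-07).

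Slc15a2, Slc7a11 and Slc1a1 were low at day 8, when the epithelial marker sum was low as well. At day 11 Slc15a2 and Slc7a11 were undetected and Slc1a1 fell by 2.92 on the log2 scale (SE 0.33, adjusted p = 6.00e-09). The epithelial sum was 12000 to 12800 at day 11, against 4380 to 20800 in non-pregnant uterus. At day 11 the trophoblast sum was 28300 to 33800 and the yolk sac sum 14800 to 21300. Which tissue gave the epithelial signal was not measured, and the part of epithelium in these falls was not tested.

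From day 10 several amino acid carriers were high. Slc7a9, the carrier of cystine and basic amino acids whose loss causes cystinuria in humans, was undetected up to day 8 and read 5.97, 6.16, 6.34 and 6.67 at day 10 and 7.11, 7.41, 7.87 and 7.12 at day 11. It was at least 4.30-fold higher (adjusted p = 2.07e-16) at day 11 than in non-pregnant uterus. Slc38a8, a glutamine carrier, was at least 3.52-fold higher (adjusted p = 5.57e-15) at day 11. Slc38a5, which exchanges glutamine and other neutral amino acids for protons, read 8.93, 8.93, 8.97 and 8.90 at day 11, against 5.29 to 7.02 with a median of 6.14 in non-pregnant uterus, a rise of 2.75 (SE 0.24, adjusted p = 3.24e-11). Slc38a5 also rose by 1.05 (SE 0.24, adjusted p = 0.00544) at day 4, where the adjusted p was 0.164 with only the 2 groups in the fit, and did not pass at days 6 and 8. The values of these 3 genes at days 10 to 12 came on the days when trophoblast, yolk sac and erythroid markers were high. The decidual sum was 22300 to 28600 at day 10 and 7940 to 10600 at day 12. The epithelial sum was 7100 to 8870 at day 10 and 11700 to 14200 at day 12. The part of these tissues in the 3 genes was not tested.

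Zinc carriers of both families changed, Slc30a2 and Slc30a3 upward and Slc39a4 downward. SLC30 members move zinc out of the cytosol, out of the cell or into vesicles, and SLC39 members move it in. Of 8 SLC30 genes, 6 rose, 1 fell and 1 did not pass at day 10 (median 1.06), and of 13 SLC39 genes 7 rose, 2 fell and 4 did not pass (median 0.72), against 26.5% of all genes rising and 27.3% falling. Slc30a2, which fills vesicles with zinc and is known for zinc in milk, was undetected on all non-pregnant and day 4 arrays, at 4.37 to 4.89 with a median of 4.44 in non-pregnant uterus. It lay at 8.63 to 9.78 with a median of 8.84 at day 6, and read 9.34, 9.69, 9.34 and 9.49 at day 8, 8.85, 9.04, 9.01 and 8.82 at day 10 and 7.67, 7.83, 7.97, 7.38 and 7.87 at day 12. It was at least 12.9-fold higher (adjusted p = 8.30e-20) at day 6 and at least 18.3-fold higher (adjusted p = 4.96e-20) at day 8 than in non-pregnant uterus, with no overlap.

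Slc30a3, which loads zinc into synaptic vesicles in brain, followed later. It was undetected up to day 6 and read 6.97, 6.44, 6.57 and 7.26 at day 8, 9.34, 9.30, 9.45 and 9.63 at day 10, 8.67, 8.65, 9.16 and 8.81 at day 11 and 6.30, 7.28, 7.44, 7.08 and 6.83 at day 12. It was at least 17.8-fold higher (adjusted p = 9.40e-20) at day 10 than in non-pregnant uterus, and the day 12 arrays all lay below the day 11 arrays, with a difference of -1.84 (SE 0.20, adjusted p = 8.89e-08). Slc30a10, a manganese exporter, was undetected up to day 8 and read 5.73, 5.67, 5.94 and 5.78 at day 10 and 7.47, 7.14, 6.92, 7.15 and 7.30 at day 12, where it was at least 3.79-fold higher (adjusted p = 9.45e-20). Slc30a1, the zinc exporter of the plasma membrane, was detected in all groups and rose at day 10 by 1.58 (SE 0.18, adjusted p = 6.83e-09); it was named after its values were seen.

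Slc39a4, the zinc importer of intestinal enterocytes, was lower on the later days. It lay at 11.87 to 13.33 with a median of 12.50 in non-pregnant uterus and 8.96 to 12.13 with a median of 11.55 at day 6, and read 9.42, 9.52, 9.66 and 9.49 at day 8 and 9.15, 9.05, 9.15, 8.67 and 8.79 at day 12. The difference was -3.00 (SE 0.39, adjusted p = 1.76e-07) at day 8 and -3.56 (SE 0.37, adjusted p = 9.13e-10) at day 12, with no overlap, and the call at day 6 was lost in a fit of 2 groups, with array weights and with median scaling (adjusted p up to 0.134). Slc39a14, an importer of zinc, manganese and iron, was at least 1.86-fold higher (adjusted p = 1.17e-08) at day 11, and Slc39a5, another zinc importer, was at least 3.54-fold higher (adjusted p = 4.35e-16) at day 12; both were named after their values were seen. Every Slc39a4 array of day 12 was below every non-pregnant one. The epithelial marker sum was 11700 to 14200 at day 12, against 4380 to 20800 in non-pregnant uterus. At day 12 the trophoblast sum was 23900 to 27600 and the yolk sac sum 22900 to 28500. The part of epithelium in the fall of Slc39a4 was not tested.

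Metallothioneins bind zinc and copper in the cytosol, and Mt1 rose on days 8 to 12 and Mt2 on days 6 to 12. Mt2 read 8.92, 8.63, 8.50 and 9.08 at day 8, against 5.09 to 5.75 with a median of 5.26 in non-pregnant uterus, a difference of 3.46 (SE 0.26, adjusted p = 2.85e-12). At day 12 the difference was 1.54 (SE 0.25, adjusted p = 3.58e-06). Mt1 rose at day 8 by 1.30 (SE 0.19, adjusted p = 1.05e-06). Its level was 14.83 to 14.97 at day 8, against 13.19 to 13.95 in non-pregnant uterus, and the value 14.9676 recurred on day 8 and day 10 arrays. Whether the upper end of the intensity scale limits this difference was not tested.

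Promoter windows of Slc30a1, Slc30a2 and Mt2 (RefSeq, GRCm38.p6) are shown because these genes rose in the same tissue and each window holds the core of the metal response element in at least 2 places. The core was searched on both strands as TGCGCNC or TGCACNC, added after the values were seen, and its copies are in capitals. Slc30a1 holds 2, Slc30a2 holds 2 and Mt2 holds 4, and 25.7% of all windows hold at least 1, as do 32.1% of the 212 windows of Slc genes. In the SLC30 family 5 of 9 windows hold it, and in the SLC39 family 6 of 14. Slc30a1 and the metallothioneins are known targets of the zinc-sensing factor Mtf1; a match of letters shows neither binding nor use here.
Slc30a1 (chr1:191906531-191906830, plus strand): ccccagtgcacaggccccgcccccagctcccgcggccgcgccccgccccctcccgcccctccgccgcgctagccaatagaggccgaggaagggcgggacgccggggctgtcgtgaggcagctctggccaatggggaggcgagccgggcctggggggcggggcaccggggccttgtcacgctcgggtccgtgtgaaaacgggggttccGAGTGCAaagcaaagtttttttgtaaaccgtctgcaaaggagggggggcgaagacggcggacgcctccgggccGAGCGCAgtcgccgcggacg
Slc30a2 (chr4:134343216-134343515, plus strand): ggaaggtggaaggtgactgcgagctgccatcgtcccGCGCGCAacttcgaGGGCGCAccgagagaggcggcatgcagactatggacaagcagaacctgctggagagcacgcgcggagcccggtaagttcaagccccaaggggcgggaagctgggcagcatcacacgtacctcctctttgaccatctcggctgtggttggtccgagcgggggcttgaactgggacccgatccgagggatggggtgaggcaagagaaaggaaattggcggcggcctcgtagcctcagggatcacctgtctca
Mt2 (chr8:94172368-94172667, plus strand): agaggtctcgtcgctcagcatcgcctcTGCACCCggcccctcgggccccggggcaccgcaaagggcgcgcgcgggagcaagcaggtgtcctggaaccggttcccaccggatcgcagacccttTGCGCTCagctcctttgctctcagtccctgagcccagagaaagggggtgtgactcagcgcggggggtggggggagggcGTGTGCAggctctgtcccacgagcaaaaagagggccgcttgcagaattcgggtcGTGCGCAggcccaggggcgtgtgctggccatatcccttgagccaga

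**Figure D4:**
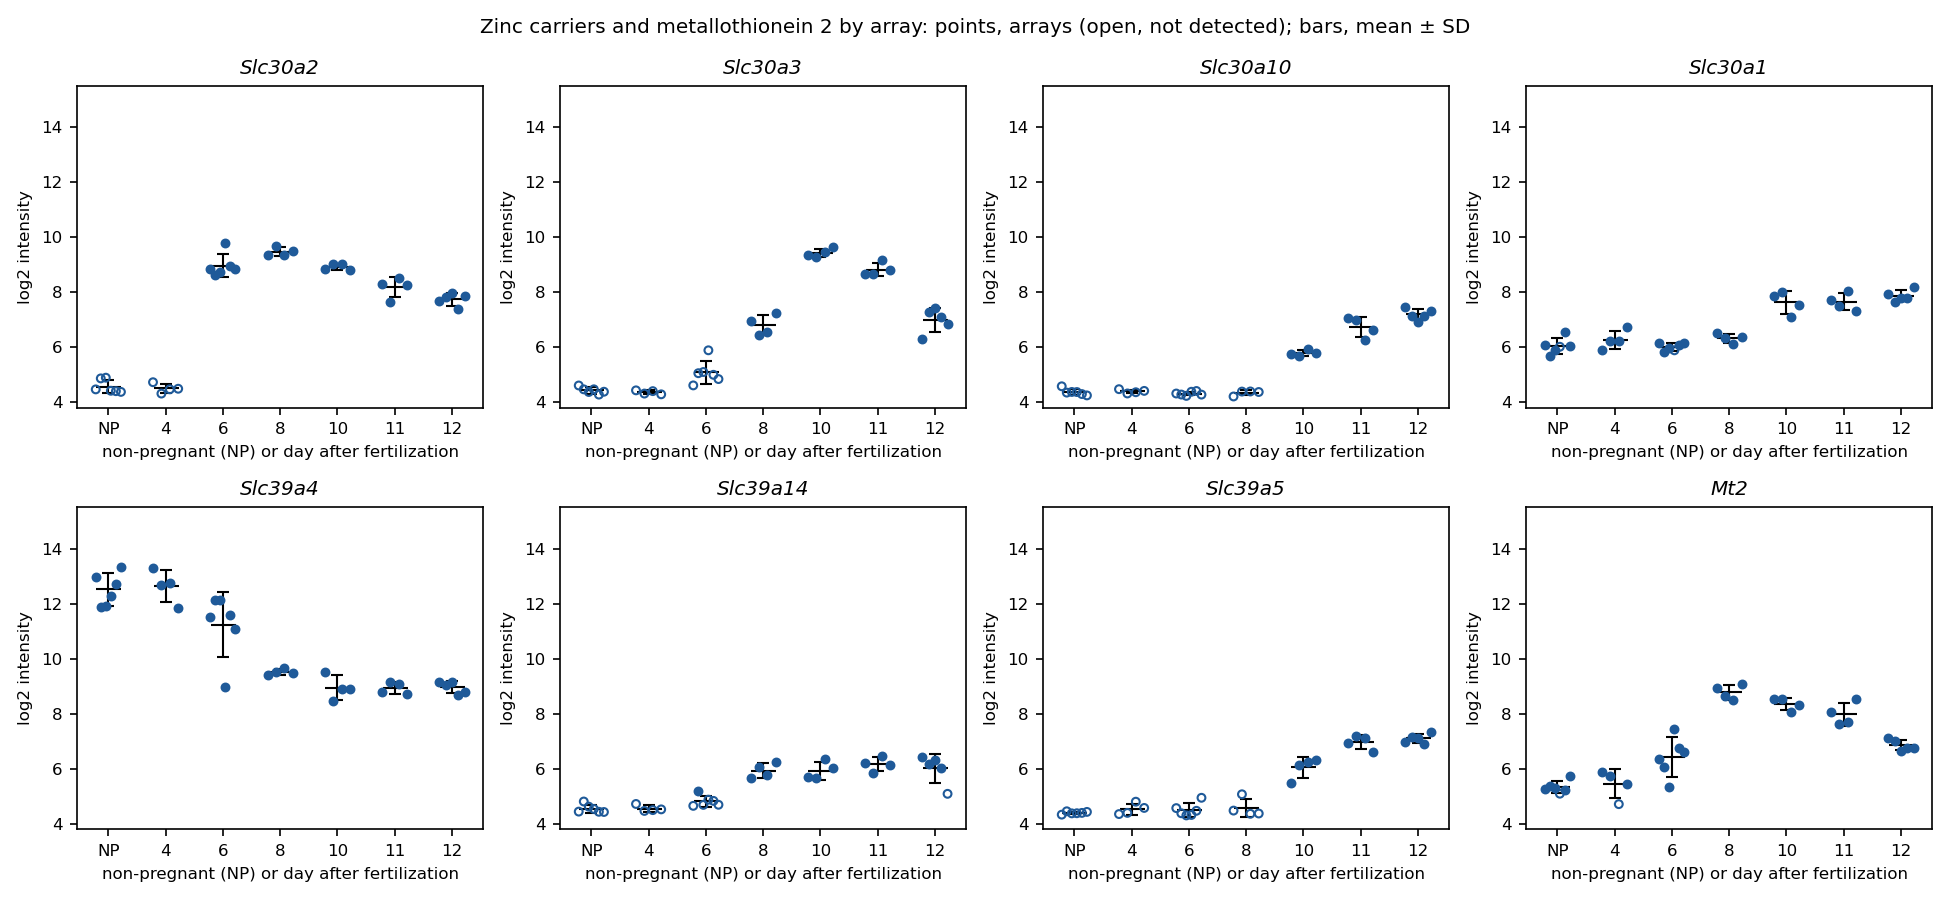
Log2 intensity of 7 zinc or manganese carriers and of Mt2 on each of the 33 arrays, by group (NP, non-pregnant; then day after fertilization), with open points where not detected and bars for the mean and SD. Slc30a2 is high from day 6, Slc30a3 is highest at day 10, Slc30a10 and Slc39a5 are detected from day 10, and Slc39a4 is low from day 8.

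Of the iron carriers, Slc40a1 was lower from day 6 and Slc25a37 was higher from day 10. Slc40a1, ferroportin, the only known cellular iron exporter of mammals, lay at 10.27 to 13.64 with a median of 12.98 in non-pregnant uterus and read 9.58, 13.30, 13.18 and 13.59 at day 4, where replicate 1 stood apart. It lay at 9.46 to 11.99 with a median of 10.54 at day 6 and read 9.14, 9.02, 9.45 and 9.26 at day 8, 9.50, 9.70, 10.01 and 10.04 at day 10, 10.74, 10.83, 10.84 and 10.82 at day 11 and 11.09, 11.30, 11.40, 11.38 and 11.43 at day 12. The lowest levels were those of day 8, and the day 10 to 12 values were higher than these on every array. The difference was -3.45 (SE 0.56, adjusted p = 6.82e-06) at day 8 and -2.85 (SE 0.56, adjusted p = 8.19e-05) at day 10. At day 12 the difference was -1.35 (SE 0.53, adjusted p = 0.0280), and that call was lost when non-pregnant replicate 1, 4 or 5 or day 12 replicate 1 was left out, without the 2 dim arrays and with median scaling (adjusted p up to 0.0702 over the alternatives). The 7 macrophage markers, of cells rich in ferroportin, summed to 2930 to 3690 at day 8 and 903 to 1120 at day 12, against 2340 to 14900 in non-pregnant uterus, and their part in this was not tested.

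Slc25a37, mitoferrin 1, which brings iron into mitochondria of red cell precursors, lay at 7.38 to 7.97 with a median of 7.75 in non-pregnant uterus, and read 7.11, 7.45, 7.06 and 7.01 at day 8, 8.79, 8.55, 8.90 and 8.76 at day 10 and 10.36, 10.56, 10.14, 10.25 and 10.18 at day 12. It rose by 1.02 (SE 0.14, adjusted p = 3.00e-07) at day 10 and by 2.57 (SE 0.13, adjusted p = 4.56e-17) at day 12. The erythroid, trophoblast and yolk sac marker sums were all high on these days, and the part of these tissues in the rise was not tested. Among 6 measured iron partners, Tfrc, the transferrin receptor, rose at day 12 by 2.22 (SE 0.28, adjusted p = 4.40e-08), and Cp, the ferroxidase ceruloplasmin, was at least 13.3-fold lower (adjusted p = 9.62e-09) at day 11. Hamp, the hormone hepcidin, was at least 2.85-fold higher at day 6 than in non-pregnant uterus and undetected on all arrays of the other groups. Hamp passed the detection limit through the day 6 arrays alone, so this is a description with no test. Slc48a1, a haem transporter named after its values were seen, fell by 1.73 (SE 0.16, adjusted p = 1.10e-10) at day 12.

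The class of sugar and carboxylate carriers, 29 genes, had 7 rises and 7 falls at day 8 (median -0.23), against 24.8% of all genes rising and 26.2% falling, and 9 rises and 9 falls at day 12 (median -0.28), against 31.8% of all genes rising and 29% falling at day 12. Slc2a1, the basal glucose transporter GLUT1, lay at 12.50 to 12.87 with a median of 12.65 at day 6, against 9.04 to 10.93 with a median of 10.42 in non-pregnant uterus. It rose by 2.55 (SE 0.27, adjusted p = 5.01e-09) at day 6 and by 2.39 (SE 0.28, adjusted p = 1.26e-08) at day 12, and its arrays of days 6 to 12 were all above the non-pregnant ones. Slc2a3, the high-affinity glucose transporter GLUT3, named after its values were seen like Slc2a4, rose by 2.48 (SE 0.37, adjusted p = 1.31e-06) at day 10. Slc2a4, the insulin-regulated GLUT4, was at least 1.83-fold lower (adjusted p = 8.30e-04) at day 10, where it was undetected. The 3 adipose markers measured of 6 summed to 89.5 to 602 at day 10, against 305 to 6070 in non-pregnant uterus.

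The 2 largest rises of the class were of carriers of other anions. Slc13a4, the sulfate transporter of the placenta, was detected on 1 of 6 non-pregnant arrays, at 4.30 to 5.71 with a median of 4.49. It read 6.12, 6.30, 5.77 and 4.84 at day 8, 9.45, 9.73, 9.76 and 9.87 at day 10, 10.27, 9.95, 10.25 and 10.10 at day 11 and 10.21, 10.52, 10.73, 10.54 and 10.84 at day 12. All arrays from day 10 on stood above all earlier arrays, and the difference from non-pregnant uterus was 4.99 (SE 0.23, adjusted p = 1.00e-17) at day 10 and 5.85 (SE 0.22, adjusted p = 1.46e-20) at day 12. The trophoblast sum was 472 to 1200 at day 8, 35200 to 40800 at day 10 and 23900 to 27600 at day 12. The yolk sac sum was 358 to 597, 7680 to 9100 and 22900 to 28500 on these days. The erythroid sum was 201 to 331, 44100 to 58500 and 68800 to 85700. The part of these tissues in the rise of Slc13a4 was not tested.

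Slc5a5, the sodium-iodide symporter of the thyroid, was highest at day 8. It lay at 5.05 to 6.26 with a median of 5.88 in non-pregnant uterus and 5.11 to 5.75 with a median of 5.23 at day 6, and read 9.22, 9.73, 9.29 and 8.85 at day 8, 6.41, 6.81, 6.73 and 6.49 at day 10, with an average of 6.93 ± 0.15 at day 12 (SD, n = 5). At day 8 it rose by 3.92 (SE 0.21, adjusted p = 2.84e-15) relative to day 6, and at day 10 it fell by 2.66 (SE 0.23, adjusted p = 6.92e-11) relative to day 8, with no overlap either time. It stayed above non-pregnant uterus, by 1.13 (SE 0.19, adjusted p = 8.97e-06) at day 12. Slc16a5, of the monocarboxylate transporter family, was detected only on the 4 day 10 arrays, at 5.71, 6.06, 5.64 and 6.15, at least 1.54-fold higher than in non-pregnant uterus. It entered the group through these 4 arrays, so this is a description with no test. Slc16a6, of the same family, fell by 1.89 (SE 0.34, adjusted p = 4.78e-05) at day 6 and did not pass from day 10 on, with a difference of -0.62 (SE 0.38, adjusted p = 0.176) at day 10.

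At day 4, before the larger changes, 3 glucose transporter genes of 7 rose, against 4.47% of all genes: Slc2a10, Slc2a13 and Slc2a3. Slc2a10, GLUT10, read 6.56, 6.97, 6.62 and 6.63 at day 4, against 4.93 to 6.25 with a median of 5.52 in non-pregnant uterus, a rise of 1.06 (SE 0.24, adjusted p = 0.00482); with only these 2 groups in the fit the adjusted p was 0.0975. Slc2a3 rose by 1.32 (SE 0.37, adjusted p = 0.0222), a value that became 2.11 without day 4 replicate 4, and its call was lost without non-pregnant replicate 1 or without day 4 replicate 1, 2 or 3 (adjusted p up to 0.338 over the alternatives). The call of Slc2a13, the proton-coupled inositol transporter, was lost without day 4 replicate 1 or 2 (adjusted p up to 0.315). The calls of Slc2a3 and Slc2a13 were lost with median scaling as well.

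Of 15 ion carriers and exchangers, 3 rose, 7 fell and 5 did not pass at day 10 (median -0.36), against 26.5% of all genes rising and 27.3% falling, and the median was below 0 on each of days 4 to 12. Slc24a3, a potassium-dependent sodium-calcium exchanger, lay at 11.70 to 13.19 with a median of 12.71 in non-pregnant uterus. It read 11.24, 11.01, 11.09 and 11.27 at day 4, 9.86, 9.73, 9.73 and 9.10 at day 8, 8.88 to 9.17 at day 10 and 8.57, 8.40, 8.53, 8.46 and 8.62 at day 12, so that every pregnant array from day 8 lay below every non-pregnant one. The difference was -1.33 (SE 0.25, adjusted p = 9.99e-04) at day 4, -2.88 (SE 0.25, adjusted p = 6.04e-11) at day 8 and -4.11 (SE 0.25, adjusted p = 7.70e-15) at day 11. The day 4 call was lost with only the 2 groups in the fit (adjusted p = 0.0935) and with median scaling (adjusted p = 0.156). The 7 smooth muscle markers summed to 57800 to 72100 at day 8 and 26800 to 39600 at day 12, against 54500 to 100000 in non-pregnant uterus, and their part in the fall was not tested.

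Slc12a8, a relative of the cation-chloride cotransporters, was highest at day 6, where it lay at 7.44 to 7.95 with a median of 7.61, against 5.19 to 5.91 with a median of 5.60 in non-pregnant uterus, a rise of 2.05 (SE 0.14, adjusted p = 5.87e-13). Slc9b2, a sodium-proton exchanger, was detected on 4 of 6 day 6 arrays and all 4 day 8 arrays, and on no array of the other groups. At day 8 it was at least 2.13-fold higher than in non-pregnant uterus. It entered the group through the day 6 and day 8 arrays alone, so this is a description with no test. Slc8b1, the sodium-calcium exchanger of mitochondria, fell by 0.90 (SE 0.16, adjusted p = 3.96e-05) at day 6 and rose by 0.79 (SE 0.18, adjusted p = 4.36e-04) at day 10.

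Of the 14 carriers of vitamins, nucleosides and choline, 4 rose, 7 fell and 3 did not pass at day 8 (median -0.55), against 24.8% of all genes rising and 26.2% falling, with 10 of 14 changed, against 22.2% of all genes. The median did not stay low: at day 11, 7 rose and 6 fell (median 0.40), against 30.7% of all genes rising and 27.5% falling. Slc44a2, a choline transporter-like protein, rose by 1.40 (SE 0.17, adjusted p = 3.21e-08) at day 8, when Slc44a3 of the same subfamily fell by 1.43 (SE 0.35, adjusted p = 0.00102) and Slc44a4 fell by 2.49 (SE 0.51, adjusted p = 1.42e-04). Slc23a3, a relative of the vitamin C transporters, lay at 6.18 to 7.90 with a median of 7.35 in non-pregnant uterus, and read 5.58, 5.08, 5.69 and 5.38 at day 8 and 8.59, 8.74, 8.81 and 8.31 at day 11. It fell by 1.81 (SE 0.26, adjusted p = 7.46e-07) at day 8 and rose by 1.37 (SE 0.26, adjusted p = 3.40e-05) at day 11, so its day 8 and day 11 arrays lie on opposite sides of the non-pregnant median. Slc29a4, the plasma membrane monoamine transporter, rose at day 11 by 2.11 (SE 0.25, adjusted p = 1.72e-08). Slc23a2, the vitamin C transporter SVCT2, and Slc29a1, the equilibrative nucleoside transporter ENT1, rose at day 10 by 2.18 (SE 0.32, adjusted p = 9.76e-07) and 1.65 (SE 0.31, adjusted p = 4.31e-05). Slc44a3, Slc44a4, Slc23a2 and Slc29a1 were named after their values were seen.

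Of 18 carriers of lipids, bile acids and organic ions, 7 rose, 5 fell and 6 did not pass at day 8 (median 0.20), against 24.8% of all genes rising and 26.2% falling. Slc47a1, which expels organic cations and drugs in exchange for protons, read 7.50, 8.13, 8.27, 8.03 and 8.41 at day 12, against 4.40 to 5.95 with a median of 4.68 in non-pregnant uterus, and rose on each of days 6 to 12, by 3.22 (SE 0.23, adjusted p = 2.10e-13) at day 12. Slc22a5, the carnitine carrier, read 7.72, 7.69, 7.69 and 7.62 at day 8, against 4.71 to 5.23 with a median of 4.97 in non-pregnant uterus, and rose by 2.71 (SE 0.22, adjusted p = 1.88e-11). At day 11 it fell by 1.24 (SE 0.25, adjusted p = 5.70e-04) relative to day 10. Slc27a6, a fatty acid carrier, rose by 2.10 (SE 0.15, adjusted p = 4.36e-13) at day 12. Slc14a1, a urea transporter named after its values were seen, was at least 3.32-fold lower (adjusted p = 3.93e-06) at day 10, where it was undetected on all 4 arrays.

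Mitochondrial carriers, the largest subfamily with 31 genes, had 8 rises and 8 falls at day 8 (median -0.032), against 24.8% of all genes rising and 26.2% falling, and 7 rises and 9 falls at day 12 (median -0.0079), against 31.8% of all genes rising and 29% falling. A few stood out in size. Slc25a29, a carrier of basic amino acids, lay at 4.72 to 6.42 with a median of 5.50 in non-pregnant uterus, and read 9.37, 9.24, 9.02 and 9.19 at day 8 and 9.02, 9.20, 9.25 and 9.43 at day 10, above every non-pregnant array. It rose by 3.68 (SE 0.23, adjusted p = 4.47e-14) at day 8 and 1.94 (SE 0.22, adjusted p = 6.06e-09) at day 12. Slc25a33, a carrier of pyrimidine nucleotides, peaked at day 8 with 11.96, 11.85, 11.82 and 11.89, against 8.34 to 9.92 with a median of 8.68 in non-pregnant uterus. It rose by 3.01 (SE 0.20, adjusted p = 1.23e-13) at day 8 and 1.51 (SE 0.20, adjusted p = 1.85e-07) at day 10, and by day 12 its difference was -0.07 (SE 0.19, adjusted p = 0.755).

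In the nucleotide sugar family, whose known members bring activated sugars into the Golgi and endoplasmic reticulum, 9 rose, 2 fell and 7 did not pass at day 8 of 18 (median 0.33), against 24.8% of all genes rising and 26.2% falling. Slc35f2 peaked at day 8 with 8.38, 8.39, 8.28 and 8.71, against 4.51 to 5.55 with a median of 5.26 in non-pregnant uterus, a rise of 3.31 (SE 0.23, adjusted p = 4.94e-13). Slc35e3 and Slc35e1 rose on each of days 6 to 12, by 1.77 (SE 0.18, adjusted p = 8.11e-10) and 1.07 (SE 0.12, adjusted p = 1.86e-08) at day 8. No member of this family changed downward at day 6, 8, 10 or 12, while 11.3% of all genes did at day 8, and 1 did at day 11, Slc35a5.

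**Figure D5:**
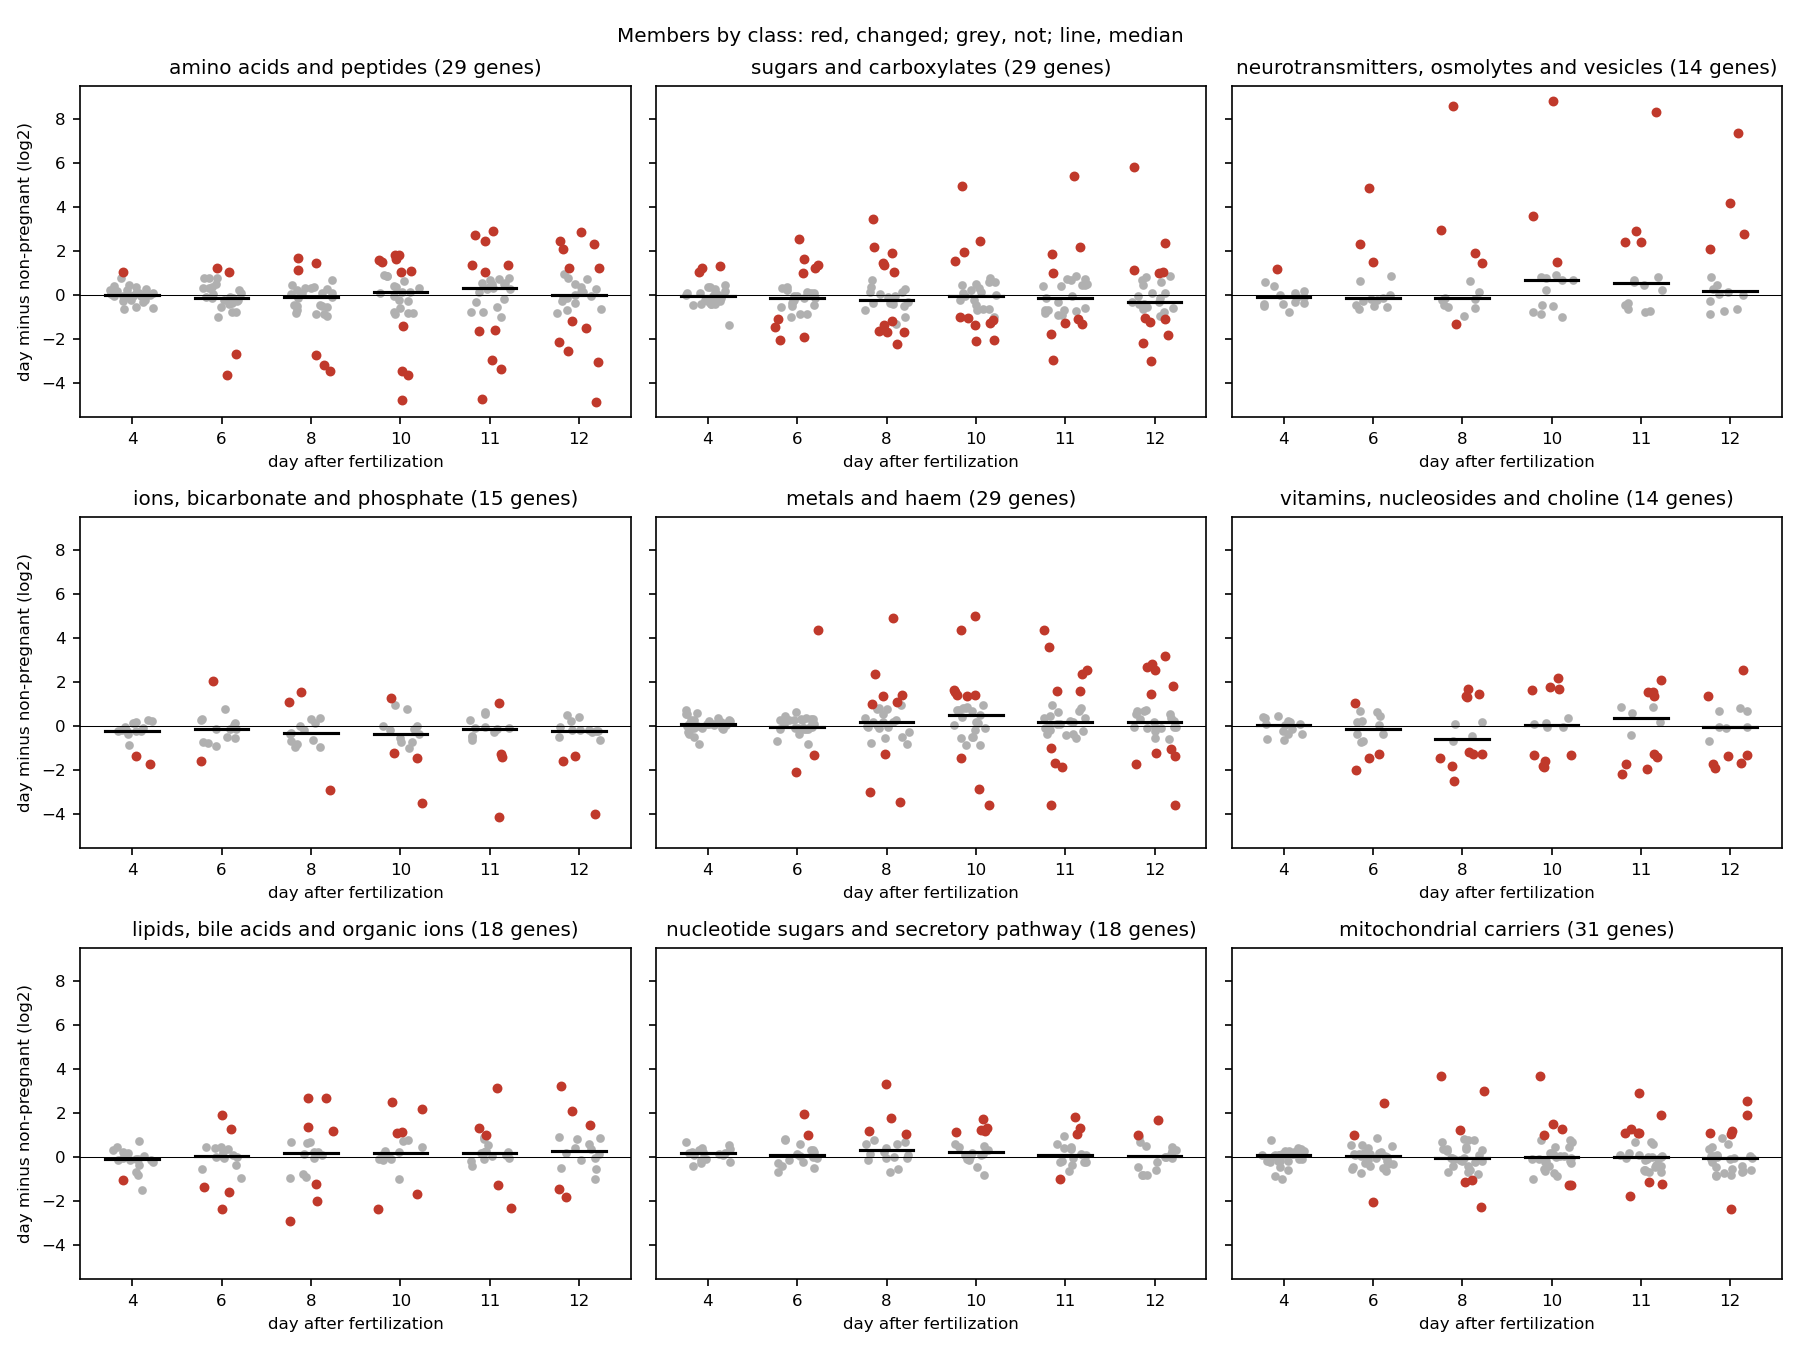
Log2 difference from non-pregnant uterus of each gene in 9 carrier classes on days 4 to 12, with genes that changed in red, the others in grey and the class median as a line. The class medians lie between -0.55 and 0.70, and single genes such as Slc13a4 (5.85 at day 12) lie far from them. Differences from a group with no detected array are against its background.

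Of the 4 genes set apart by symbol as not carriers, the 2 scaffolds with PDZ domains moved in opposite directions. Slc9a3r2 rose by 1.08 (SE 0.18, adjusted p = 1.70e-05) at day 6, when Slc9a3r1 fell by 0.98 (SE 0.24, adjusted p = 0.00172), and fell by 1.37 (SE 0.20, adjusted p = 9.11e-07) at day 11, when Slc9a3r1 rose by 0.82 (SE 0.27, adjusted p = 0.0105). Slc7a6os was detected on 16 of 33 arrays and on none of the 4 day 8 arrays. Outside the classes, Slc66a2 fell by 1.30 (SE 0.13, adjusted p = 1.99e-09) at day 8, and Slc49a4 did not pass the F test (adjusted p = 0.976).

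Of the 5 steps between successive days, that from day 4 to day 6 had the highest count. At day 6 against day 4, 33 Slc genes changed (16.2%, against 11.1% of all genes), 17 upward (8.33% against 5.33%) and 16 downward (7.84% against 5.76%). Slc30a2 was at least 13.8-fold higher (adjusted p = 1.40e-18) at day 6 than at day 4, and Slc6a12 rose by 4.43 (SE 0.21, adjusted p = 5.34e-17). Slc7a11 was at least 6.35-fold lower (adjusted p = 4.91e-05) at day 6, or at least 11.1-fold lower without day 4 replicate 1, and Slc15a2 fell by 2.34 (SE 0.40, adjusted p = 3.33e-05). With median scaling, which shifts the median of all genes in this comparison by -0.17, 39.4% of the changed Slc genes were upward, against 51.5% in the main setting.

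At day 8 against day 6, 15 Slc genes changed (7.35%, against 6.25% of all genes), 11 upward (5.39% against 3.94%) and 4 downward (1.96% against 2.31%). Upward genes were 73.3% of those changed, or 84.6% with median scaling and 57.1% without background correction and in the authors' values. Among genes whose day 8 and day 6 arrays did not overlap, Slc5a5 and Slc6a12 rose most, and Slc1a1 and Slc24a3 fell most, with a difference of -1.31 (SE 0.25, adjusted p = 2.70e-04) for Slc24a3. At day 10 against day 8 the count was 25 (12.3%, against 7.79%), 18 upward (8.82% against 5.3%) and 7 downward (3.43% against 2.49%). Upward genes were 72% of those changed, or 55.6% without background correction and in the authors' values. Slc13a4 rose by 3.95 (SE 0.26, adjusted p = 1.10e-13) and Slc30a3 by 2.62 (SE 0.22, adjusted p = 3.32e-11). Slc9b2 was at least 2.08-fold lower at day 10 than at day 8, again as a description with no test. Slc5a5 was among the largest falls too, with the values given above. Slc15a2, undetected at day 10, was at least 1.94-fold lower (adjusted p = 0.010) than at day 8, a call that was lost without background correction, with median scaling and in the authors' normalized values (adjusted p up to 0.204).

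In the last 2 steps few Slc genes changed, 8 to 12 and 4 to 6 when 1 array was left out. At day 11 against day 10, 10 changed (4.9%, against 5.26%), 8 upward (3.92% against 3.13%) and 2 downward (0.98% against 2.13%). Upward genes were 80% of those changed, or 66.7% with cyclic loess normalization. Slc17a6 was at least 2.89-fold higher (adjusted p = 7.20e-13) at day 11, Slc29a4 rose by 2.13 (SE 0.27, adjusted p = 8.91e-07), and Slc16a5 was no longer detected. At day 12 against day 11 the count was 4 (1.96%, against 2.45%), 3 upward (1.47% against 1.33%) and 1 downward (0.49% against 1.11%). Upward genes were 75% of those changed, or 60% with median scaling and 50% with cyclic loess, without background correction and in the authors' values. Slc17a6 rose by 1.78 (SE 0.14, adjusted p = 2.03e-11), Slc32a1 by 1.57 (SE 0.18, adjusted p = 2.00e-07) and Slc27a6 by 1.25 (SE 0.17, adjusted p = 3.51e-06), and Slc30a3 fell.

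More than 1 probe passed the detection limit for 53 of the 204 genes. Of their 76 further probes, 37 passed the adjusted p at day 12 along with the probe used, and 1 of these, of Slc45a4, had the opposite sign there and at day 11, so no direction is given for that gene. In the other 9 comparisons 0 further probes passed with the opposite sign.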

How the data were processed

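Per the labels' protocols, total RNA was isolated with Trizol, purified on RNeasy columns, treated with DNase I, checked on a Bioanalyzer and amplified to biotin-labelled cRNA for Illumina arrays. The table deposited by the authors gives a bead intensity per probe and array, not normalized, and a detection p-value (45281 probes). A second table deposited by the authors gives log2 values, quantile normalized to judge by the values (16712 probes), and was used to choose probes and as an alternative. Which software made either table is not given in the sources used here. Arrays of the tables were matched by rank correlation (1 for each of 33). For 16 arrays the replicate numbers of the tables differ, always within a group, and those of the intensity table are used.

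Intensities were background corrected from the detection p-values (limma 3.58.1, nec, offset 16), quantile normalized and logged. Probes were named through GEO's platform annotation (15254 with 1 symbol, 5 with several, which were left out), and a gene was kept when detected (p under 0.01) on at least 4 arrays. Of 204 Slc genes, 204 matched RefSeq's gene table and 157 have a promoter window there (32851 windows in all). limma (R 4.3.3) fitted 7 group means to all 33 arrays and 10412 genes, with Benjamini-Hochberg adjustment over all genes of a comparison, and this fit was tested on simulated data. SE is that of the fit, which pools the spread of a gene over the groups. Where a probe was undetected on all arrays of a group, the fold is a bound, the mean of the other group against, for each array, the higher of its lowest detected signal and the signal of the probe. The number of arrays limits precision. Levels are not compared between probes.

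Genes named are the 4 markers Slc6a12, Slc1a1, Slc7a11 and Slc15a2; the 3 largest rises and falls of each day against non-pregnant uterus and the 2 largest of each successive pair, without overlap; the 3 of each class with the smallest F-test p; and up to 4 partner genes changed in the most comparisons. Other genes named were picked after their values were seen. Of 55 partner genes listed, 39 were measured. The members and lists were chosen with earlier results of these data known. No batch or slide is given. Alternatives were another background correction, scaling, filter, probe choice, set of arrays, array weights, a replicate block, and the authors' log2 values. Figures were drawn with matplotlib 3.10.9.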

Additional observations from a re-analysis of the deposited data

Results flagged for a closer look

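Within groups of 4 to 6 arrays, Dixon's test was made for 42 named carrier genes, 242 groups in all, and marked 19 values that lie far from the other arrays of their group. Chance marks about 5% of groups. Of the 19 values, 10 belong to day 6 replicate 4, one of the 2 arrays with few detected probes, 3 to non-pregnant replicate 6 and 3 to day 12 replicate 1.

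On day 6 replicate 4, the log2 level was higher than on the other 5 arrays for Slc24a3 (11.91, against 10.34 to 10.90), Slc25a29 (8.83, against 7.57 to 8.00), Slc25a37 (7.76, against 6.99 to 7.17), Slc30a2 (9.78, against 8.63 to 8.94), Slc35e3 (10.05, against 9.11 to 9.30), Slc44a2 (12.38, against 11.35 to 11.50) and Slc9a3r1 (9.44, against 8.44 to 8.74). It was lower for Slc22a5 (4.90, against 6.28 to 6.82), Slc35f2 (5.89, against 7.12 to 7.60) and Slc39a4 (8.96, against 11.07 to 12.13).

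Non-pregnant replicate 6 was low for Slc15a2 (7.78, against 9.31 to 10.20) and Slc40a1 (10.27, against 12.51 to 13.64) and high for Slc47a1 (5.95, against 4.40 to 4.93). Day 12 replicate 1 was low for Slc32a1 (6.22, against 7.23 to 7.60), Slc44a2 (11.66, against 11.85 to 11.88) and Slc7a11 (4.71, against 5.21 to 5.40). Day 4 replicate 1 was low for Slc40a1 (9.58, against 13.18 to 13.59), day 12 replicate 4 for Slc22a5 (5.52, against 5.85 to 5.94) and day 10 replicate 3 for Slc9a3r2 (9.14, against 9.31 to 9.34).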

How the results depend on the processing

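Background correction decides how many carrier genes pass the 2-fold limit. Without it, the counts of changed Slc genes were 3 at day 4, 17 at day 6, 33 at day 8, 29 at day 10, 31 at day 11 and 34 at day 12 against non-pregnant uterus, and 17, 7, 9, 0 and 2 for the successive pairs from day 6 against day 4 to day 12 against day 11. With the authors' log2 values they were 3, 16, 32, 27, 31 and 33, and 16, 7, 9, 0 and 2. For the 2 counts of 0, in limma, 33 and 35 Slc genes still passed the adjusted p, and 58 and 57 had an unadjusted p under 0.05. Signals that keep their background show smaller differences by construction. In this and every other alternative only Slc genes were counted, so no share of all genes stands beside these counts. The count at day 4 was also moved by median scaling (3), by a fit of only 2 groups (0, with 30 at an unadjusted p under 0.05), by array weights (13) and by averaging near-identical arrays (3). With detection required on 17 arrays, 170 Slc genes were tested, and 5 changed at day 11 against day 10 and 1 at day 12 against day 11. Leaving out 1 array at a time gave 2 to 10 at day 4, 31 to 40 at day 6, 60 to 67 at day 8, 64 to 69 at day 10, 61 to 69 at day 11 and 58 to 66 at day 12. For the successive pairs, in order, it gave 28 to 39, 13 to 18, 23 to 28, 8 to 12 and 4 to 6, and for the F test 164 to 174. Single values were followed for the 4 markers, and for the largest rises and falls in the comparison that named them, where they passed the adjusted p. None of these changed sign in any alternative. Of these calls 3 were lost, in 6 cases: Slc2a10 and Slc24a3 at day 4 and Slc15a2 at day 10 against day 8. Partner genes and values that did not pass were not followed in this way. Lost calls of other genes stand beside their values. Of the 64 calls at day 8, 59 passed the adjusted p in all alternatives, as did 61 of 66 at day 10, 63 of 68 at day 11, 61 of 64 at day 12, 32 of 36 at day 6 and 0 of 8 at day 4. With a replicate block on the number, the count was 8 at day 4, 36 at day 6, 67 at day 10 and 30 at day 6 against day 4. No count moved by over 1.5 times and none of the followed calls changed. Whether the numbers pair the arrays was not settled. The median correlation of same-numbered arrays was 0.012 (-0.35 to 0.43, 88 pairs), against 0.0046 (-0.54 to 0.57, 376 pairs) for arrays of different number. Of the 33 arrays, 12 correlated best with their own number, and the numbers of 16 arrays differ between the authors' tables. The intensities of background probes limit what can be said of genes near a level of 4.4.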
